A study of Mus musculus with 2 samples.

Results

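The antioxidant and glutathione genes described here are 41 named mouse genes: the enzymes that remove superoxide and peroxides, the thioredoxin system, the enzymes that make, recycle and use glutathione, the ferritin chains, and the regulators NRF2 (Nfe2l2) and KEAP1. They were listed by name for their role, with no threshold on a measured value but with earlier results of these data known, and all 41 symbols matched exactly 1 of the 55401 gene identifiers counted in each library. RNA was sequenced from hearts of C57BL/6 mice that had all undergone transverse aortic constriction (TAC), an operation that narrows the aorta and so puts the left ventricle under pressure. The compared libraries were 1 from TAC with dioscin, a plant steroidal saponin given for 4 weeks after surgery, and 1 from TAC alone. Both samples carry the same treatment protocol text, and it is the treatment label alone that sets the TAC library apart as untreated. The dose, the age and sex of the mice, and whether a library came from 1 heart or several were not given in the labels used here. Hearts without surgery were not analysed here.

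Superoxide, which leaks from the respiratory chain of heart muscle mitochondria, is turned into hydrogen peroxide by superoxide dismutases. Catalase, glutathione peroxidases and peroxiredoxins then reduce the peroxide, the peroxidases at the cost of glutathione and most peroxiredoxins at the cost of thioredoxin. KEAP1 holds the transcription factor NRF2 at a ubiquitin ligase for degradation. When oxidants modify KEAP1, NRF2 accumulates and, with small MAF proteins, binds antioxidant response elements in promoters of many of these genes.

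The core of that element, TGACNNNGC, was searched on both strands in the RefSeq promoters of the members on GRCm38.p6, from 250 bases before to 50 bases after each start. Promoters were found for 35 of the 41 genes (43 promoters). Those of Sod3, Prdx6, Gclc, Gsr, Gsta4 and Hmox1 were not matched. The letters were present for 9 of the 35 genes, or 25.7%, against 14% of 27025 genes of the whole table. Counted by promoter the shares were 20.9% of 43 and 12.4% of 32851. Sequence outside this window was not searched, so a gene without a match here may still hold the element elsewhere. The promoters of members are printed here for the 3 genes that held the letters and were also higher with dioscin (Gclm, Gstm5 and Mgst1), and for Prdx1, whose match was GCTGAGTCA. Each line gives the 250 bases before the start, 5′ to 3′ on the plus strand of the genome, which is the strand of all 4 genes, and capitals mark the core.
Gclm: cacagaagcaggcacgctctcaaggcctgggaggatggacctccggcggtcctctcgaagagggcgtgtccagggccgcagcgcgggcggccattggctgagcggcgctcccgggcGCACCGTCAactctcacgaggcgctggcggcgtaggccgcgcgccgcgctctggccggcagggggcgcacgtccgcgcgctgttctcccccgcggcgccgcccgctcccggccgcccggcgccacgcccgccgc
Gstm5: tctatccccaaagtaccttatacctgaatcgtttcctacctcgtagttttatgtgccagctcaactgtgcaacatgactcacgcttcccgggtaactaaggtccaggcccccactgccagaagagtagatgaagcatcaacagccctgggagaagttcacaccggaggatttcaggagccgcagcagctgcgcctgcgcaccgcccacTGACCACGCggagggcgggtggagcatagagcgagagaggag
Mgst1: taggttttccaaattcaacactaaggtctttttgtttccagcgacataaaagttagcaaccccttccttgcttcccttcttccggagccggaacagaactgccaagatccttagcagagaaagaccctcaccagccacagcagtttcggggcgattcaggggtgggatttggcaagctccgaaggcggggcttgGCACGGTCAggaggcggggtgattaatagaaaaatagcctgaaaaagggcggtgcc
Prdx1: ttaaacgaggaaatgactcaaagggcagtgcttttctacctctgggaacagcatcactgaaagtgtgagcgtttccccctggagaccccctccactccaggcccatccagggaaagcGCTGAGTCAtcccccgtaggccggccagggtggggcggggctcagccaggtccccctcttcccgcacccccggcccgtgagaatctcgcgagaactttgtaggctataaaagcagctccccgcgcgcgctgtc
The windows are chr3:122245307-122245556 for Gclm, chr3:107895604-107895853 for Gstm5, chr6:138140277-138140526 for Mgst1 and chr4:116685349-116685598 for Prdx1. The core read TGACCACGC in Gstm5, on the plus strand. In the other 3 it lay on the minus strand, so that the printed letters are its reverse complement GCNNNGTCA. The Prdx1 match also contains TGAGTCA, the letters of an AP-1 site. The other members with a match were Nfe2l2, Sod1, Txnrd1, Srxn1 and Gsta3. Of the members with a promoter, 3 of the 10 called higher below held the core, as did 6 of the 25 not called.

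Levels are in CPM (counts of a gene relative to the TMM-scaled size of its library), and levels of different genes are compared only as CPM per kilobase of exonic length. The ratio is dioscin over TAC with 0.5 added to both counts. Its exact 95% Clopper-Pearson interval covers counting error alone, because neither PCR copies nor the variation among mice could be assessed. To be called higher or lower, a gene had to reach 1 CPM in either library and to differ 2-fold or more, with an interval that left out 1. With 1 library per group this size rule has no replicate check and is no test of the treatment, so no p-value is given.

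The antioxidant and glutathione genes were mostly more abundant in the dioscin library. Of the 41 members, 40 reached 1 CPM, and 12 of these were called higher and none lower. Over all 15697 genes that reached 1 CPM, the same rule called 10.5% higher and 8.77% lower. Without the size limit, the counting interval lay wholly above 1 for 35 of the 40 members, against 35.1% of all genes. It lay wholly below 1 for 1 member, Keap1, against 32.1% of all genes. Higher counts narrow the interval, so these shares also depend on how abundant the genes are. With the fold threshold at 1.5, 27 members were called higher, against 20.3% of all genes, and with it at 3, 6 members, against 4.98%. None was lower at either, against 17.9% and 3.53% of all genes. The median log2 ratio was 0.72 over the 40 members and 0.01 over all 15697 genes. Together the 41 members had 6966 CPM in the dioscin library and 3255 CPM in the TAC library, and without Gpx3 the sums were 5720 CPM and 3105 CPM, a ratio of 1.84.

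**Figure D1:**
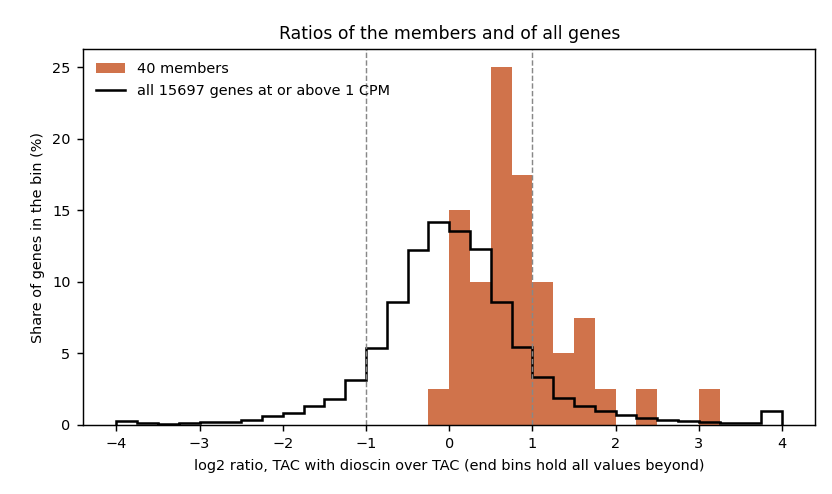
Share of genes in each bin of the log2 ratio, dioscin over TAC, for the 40 members (bars) and for all 15697 genes at or above 1 CPM (line); dashed lines mark a 2-fold difference. The members are centred at 0.72 and all genes at 0.01, and 1 member lies below 0.

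The libraries held 17612259 counts in genes with dioscin and 16782741 with TAC, of which mitochondrially encoded genes took 25.5% and 31.6%. All 8 genes listed as markers of ventricular muscle were measured, with a summed level of 53547 CPM with dioscin and 49755 CPM with TAC. None was called. Their ratios ran from 0.654 for Ttn to 1.59 for Actc1, 6 above 1 and 2 below, with Myl2 at 0.785. The sums do not show whether the share of ventricle was alike, which was not tested. Markers of other cells differed between the libraries. Of 6 atrial muscle markers, 5 were called higher, with a summed level of 17319 CPM with dioscin and 592 CPM with TAC, where Mybphl and Bmp10 were at 0 counts. Most of both sums was Nppa, at 12663 CPM with dioscin and 588 CPM with TAC. Sln, Myl7 and Myl4 had 726, 1759 and 1970 CPM with dioscin. With TAC they had 1, 13 and 55 counts, or 0.0579, 0.753 and 3.18 CPM. Of 8 mesothelial markers 7 were called higher, with 153 and 18.5 CPM, and Krt8 and Krt18 were at 0 counts with TAC. Of 7 adipocyte markers 5 were called higher, with 31.1 and 0.811 CPM. Cidec, Plin1, Retn and Lep were at 0 counts with TAC, and Lep was at 0 with dioscin too. Of 9 fibroblast markers 6 were called higher, with 3575 and 1180 CPM. Of 9 macrophage markers 2 were called higher and 1 lower, with 394 and 227 CPM, and of 6 erythroid markers 1 was called lower, with 306 and 373 CPM. Of 6 endothelial markers 2 were called higher and 1 lower, with 1463 and 1492 CPM. Of 5 neutrophil markers 3 were called lower, with 5.43 and 19.1 CPM, and Ly6g was at 0 counts in both libraries. A count of 0 allows up to 3 counts, which is 0.175 CPM with dioscin and 0.174 CPM with TAC. No marker of ventricular muscle, fibroblasts, macrophages, endothelium or red cells was at 0. These differences stand beside every ratio below, and their part in it was not tested. In RNA of heart tissue, a difference in the part of the heart taken, fewer cells of a type and less RNA per cell cannot be told apart.

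**Figure D2:**
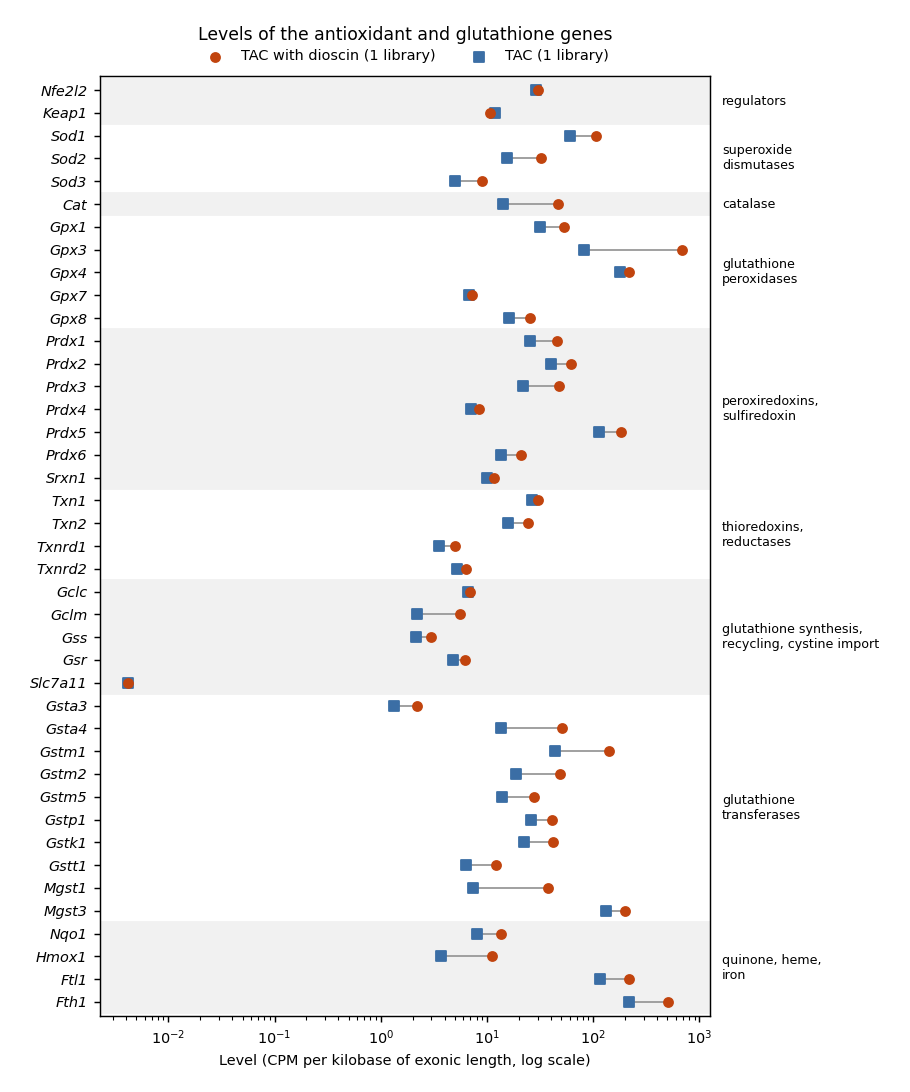
Level of each of the 41 members in the dioscin library (circles) and the TAC library (squares), in CPM per kilobase of exonic length on a log axis, grouped by role. Gpx3 has the highest level with dioscin (687) and Fth1 with TAC (219), and Slc7a11 lies lowest in both.

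The regulators differed little between the libraries. Nfe2l2 had 114 CPM with dioscin and 111 CPM with TAC, a ratio of 1.03 (0.967 to 1.10). Keap1 had 50.2 CPM with dioscin and 56.2 CPM with TAC, a ratio of 0.893 (0.813 to 0.979). Neither was called. The log2 ratio of Nfe2l2 turned from 0.04 to -0.16 when libraries were scaled without mitochondrially encoded genes, and that of Keap1 from -0.16 to 0.03 after removal of the trend over length and GC content. Activity of NRF2 is set largely through the stability of its protein, which counts of RNA do not measure.

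All 3 superoxide dismutase genes had intervals above 1, as did 35.1% of all genes, and the mitochondrial one passed the size rule. Sod2, the manganese enzyme of the mitochondrial matrix (ENSMUSG00000006818.5; chromosome 17, 13006846 to 13040063 on GRCm38), had 5510 counts or 322 CPM with dioscin and 2673 counts or 155 CPM with TAC. Its ratio of 2.08 (1.99 to 2.18) lay just past the threshold, and it was not called when libraries were scaled by total counts or without mitochondrially encoded genes. Sod1, the cytosolic copper and zinc enzyme, had 425 CPM with dioscin and 240 CPM with TAC, a ratio of 1.77 (1.70 to 1.84). Sod3, the secreted form, had 33.9 CPM with dioscin and 18.6 CPM with TAC, a ratio of 1.82 (1.59 to 2.09). The make-up of the family was similar in the 2 libraries, with Sod1 holding 72.2% of its summed level per length with dioscin and 74.7% with TAC.

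Catalase, the peroxisomal enzyme that splits hydrogen peroxide, was called higher. Cat (ENSMUSG00000027187.10; chromosome 2, 103453849 to 103485160 on GRCm38) had 2107 counts or 123 CPM with dioscin and 638 counts or 36.9 CPM with TAC, a ratio of 3.33 (3.05 to 3.65). Of all genes at or above 1 CPM, 4.17% had a higher ratio.

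Among the glutathione peroxidases a single gene stood out. Gpx3, the secreted plasma form (ENSMUSG00000018339.11; chromosome 11, 54902453 to 54910377 on GRCm38), had 21325 counts or 1246 CPM with dioscin and 2586 counts or 150 CPM with TAC. Its ratio of 8.32 (7.99 to 8.67) was the highest of all members, and 1.33% of all genes at or above 1 CPM had a higher one. Per length, Gpx3 ranked the sixth of the members with TAC, at 82.6 CPM per kilobase, and topped them with dioscin, at 687 CPM per kilobase.

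The other peroxidases were not called. Gpx1, a cytosolic enzyme, had 76.5 CPM with dioscin and 45.9 CPM with TAC, a ratio of 1.67 (1.53 to 1.82). Gpx4, which reduces lipid peroxides in membranes and guards against ferroptosis, had 376 CPM with dioscin and 310 CPM with TAC, a ratio of 1.21 (1.17 to 1.26). A limit applies to Gpx4, since 61.7% of the 50-base stretches of its longest transcript also occur in transcripts of other genes, mainly the pseudogene Gpx4-ps2. Gpx8, a peroxidase of the endoplasmic reticulum, had a ratio of 1.55 (1.33 to 1.80), and its relative Gpx7 had 1.05 (0.834 to 1.32). The family's make-up therefore differed between the libraries. Gpx3 held 69.4% of the summed level per length with dioscin and 26.0% with TAC, while Gpx4 held 22.0% with dioscin and 56.7% with TAC.

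**Figure D3:**
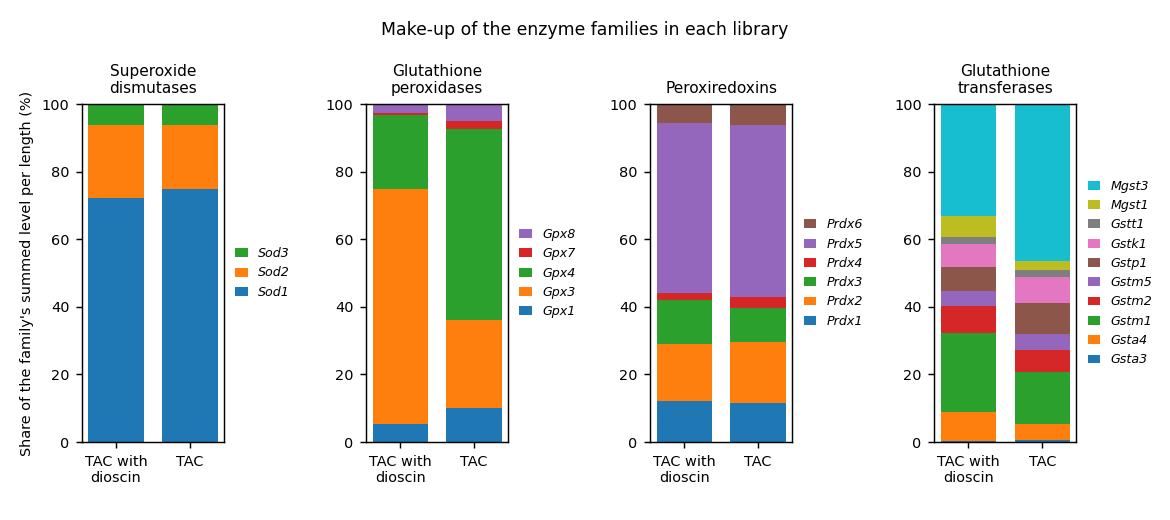
Share of each gene in its family's summed level (CPM per kilobase of exonic length, in percent), for superoxide dismutases, glutathione peroxidases, peroxiredoxins and glutathione transferases, with the dioscin library on the left and the TAC library on the right of each panel. Gpx3 takes 69.4% of its family with dioscin and 26.0% with TAC, while the superoxide dismutases and peroxiredoxins keep a similar make-up.

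Peroxiredoxins reduce peroxides with cysteine residues, and none had a ratio as high as that of Gpx3. Prdx3, the mitochondrial member, had 1212 counts or 70.8 CPM with dioscin and 562 counts or 32.5 CPM with TAC. Its ratio of 2.17 (1.97 to 2.41) passed the size rule, but not when libraries were scaled without mitochondrially encoded genes or the trend over length and GC content was removed. The other 5 peroxiredoxins had ratios between 1.18 for Prdx4, the form of the endoplasmic reticulum, and 1.78 for Prdx1, a cytosolic form. Prdx5 was the most abundant per length, with 185 CPM per kilobase with dioscin and 113 CPM per kilobase with TAC, a ratio of 1.63 (1.57 to 1.70). Prdx2, a further cytosolic form, had a ratio of 1.53 (1.44 to 1.61). Prdx6, which uses glutathione in place of thioredoxin, also had 1.53 (1.42 to 1.65). Sulfiredoxin, Srxn1, which repairs over-oxidised peroxiredoxins, had 33.2 CPM with dioscin and 28.1 CPM with TAC, a ratio of 1.18 (1.04 to 1.34).

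In the thioredoxin system none of 4 genes was called. The cytosolic thioredoxin Txn1 had 32.0 CPM with dioscin and 28.1 CPM with TAC, a ratio of 1.14 (1.01 to 1.29), which turned to a log2 ratio of -0.02 when libraries were scaled without mitochondrially encoded genes. The mitochondrial thioredoxin Txn2 had 102 CPM with dioscin and 66.6 CPM with TAC, a ratio of 1.53 (1.42 to 1.65). The reductases that regenerate them had ratios of 1.42 (1.26 to 1.62) for the cytosolic Txnrd1 and 1.23 (1.08 to 1.41) for the mitochondrial Txnrd2. Sod2, Prdx3, Txn2 and Txnrd2 are mitochondrial enzymes that were paired here with cytosolic counterparts. Summed per length, they were at 111 CPM per kilobase with dioscin and 58.5 with TAC, a ratio of 1.89. Their cytosolic counterparts Sod1, Prdx1, Txn1 and Txnrd1 were at 188 CPM per kilobase with dioscin and 116 with TAC, a ratio of 1.62. Prdx5, the most abundant peroxiredoxin per length, at 185 CPM per kilobase with dioscin and 113 with TAC, was left out of both sums.

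The genes of glutathione synthesis differed among themselves. Glutamate-cysteine ligase, the rate-limiting enzyme, is made of a catalytic subunit, Gclc, and a modifier subunit, Gclm, that makes it more efficient. Gclm (ENSMUSG00000028124.15; chromosome 3, 122245557 to 122270732 on GRCm38) had 598 counts or 34.9 CPM with dioscin and 238 counts or 13.8 CPM with TAC, a ratio of 2.53 (2.18 to 2.96), and was called higher. Gclc had 442 counts or 25.8 CPM with dioscin and 433 counts or 25.1 CPM with TAC, a ratio of 1.03 (0.900 to 1.18). The counting intervals of the 2 subunits did not overlap. Per length, the catalytic subunit stood at 6.86 CPM per kilobase with dioscin and 6.66 with TAC, and the modifier at 5.55 with dioscin and 2.19 with TAC. Gss, which adds glycine to finish glutathione, had a ratio of 1.39 (1.16 to 1.66), and Gsr, which reduces its oxidised form, had 1.30 (1.09 to 1.56). Slc7a11, the cystine importer that feeds the pathway in many cells, had 1 count in each library and stayed below the filter.

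Glutathione transferases, which join glutathione to lipid peroxidation products and foreign compounds, held 5 of the 12 calls, and all 10 had intervals above 1. Over all genes, 10.5% were called higher and 35.1% had intervals above 1. Mgst1, a transferase and peroxidase of microsomal and outer mitochondrial membranes (ENSMUSG00000008540.11; chromosome 6, 138140316 to 138156755 on GRCm38), had 1286 counts or 75.1 CPM with dioscin and 255 counts or 14.8 CPM with TAC. Its ratio was 5.08 (4.44 to 5.84), the closest to that of Gpx3. Gsta4, which detoxifies the lipid aldehyde 4-hydroxynonenal (ENSMUSG00000032348.6; chromosome 9, 78182774 to 78209349 on GRCm38), had 1105 counts or 64.6 CPM with dioscin and 298 counts or 17.3 CPM with TAC, a ratio of 3.74 (3.29 to 4.27).

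The 3 mu class members, which lie together on chromosome 3, were all called higher. Gstm1 had 207 CPM with dioscin and 65.0 CPM with TAC, a ratio of 3.18 (2.97 to 3.40). Gstm2 had 81.5 CPM with dioscin and 31.5 CPM with TAC, a ratio of 2.59 (2.34 to 2.86). Gstm5 had 35.8 CPM with dioscin and 17.6 CPM with TAC, a ratio of 2.03 (1.77 to 2.34), which fell short of the rule when libraries were scaled by total counts, scaled without mitochondrially encoded genes, or corrected for length and GC content. These genes are close relatives, and 23.1% of the 50-base stretches of Gstm1 and 9.4% of those of Gstm2 occur in other genes. Reads from such stretches may have several alignments, and reads of that kind were not counted to genes. For Gstm5 the share was 10.1%, in an overlapping gene on the opposite strand.

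The other 5 transferases were not called, although Gstk1, a mitochondrial and peroxisomal form, came close at 1.91 (1.72 to 2.12), as did Gstt1 of the theta class at 1.90 (1.57 to 2.30). Gsta3 had a ratio of 1.62 (1.25 to 2.096). Gstp1 had 1.57 (1.43 to 1.73), with the limit that 62.3% of its 50-base stretches occur in other genes, mainly Gstp2. Mgst3, the most abundant transferase per length in both libraries, had 219 CPM with dioscin and 146 CPM with TAC, a ratio of 1.498 (1.42 to 1.58). Its share of the family's summed level per length was 33.1% with dioscin and 46.4% with TAC.

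**Figure D4:**
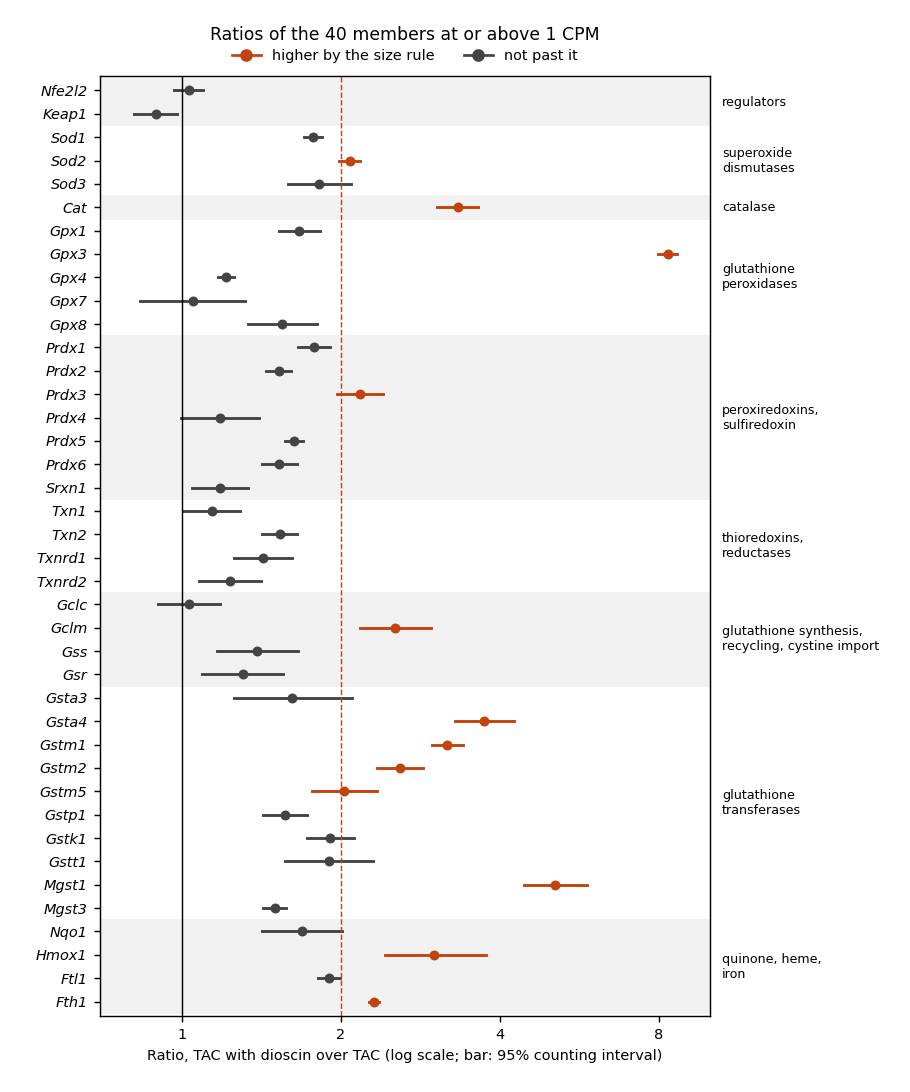
Ratio, dioscin over TAC, for the 40 members at or above 1 CPM, on a log axis, with 95% counting intervals as bars; the solid line marks 1 and the dashed line 2. The 12 members called higher run from 2.03 for Gstm5 to 8.32 for Gpx3, and Keap1 alone has an interval wholly below 1.

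Among the heme, quinone and iron genes, 2 of 4 were called higher, against 10.5% of all genes. Hmox1, the inducible heme oxygenase that releases iron, carbon monoxide and biliverdin, had 335 counts or 19.6 CPM with dioscin and 112 counts or 6.49 CPM with TAC, a ratio of 3.01 (2.43 to 3.77). Macrophages that clear red cells also express it. Of the 9 macrophage markers, Lyve1 and Cd163 were called higher, with ratios of 9.67 (8.10 to 11.7) and 3.83 (3.33 to 4.42), and Ccr2 was called lower at 0.249 (0.188 to 0.323). The other 6 were not called, with ratios of 1.64 for Adgre1, 1.59 for C1qa, 1.57 for C1qb, 1.34 for Mrc1, 1.10 for Csf1r and 1.01 for Cd68. Their part in the Hmox1 ratio was not tested.

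Fth1, the ferritin heavy chain that oxidises iron for storage (ENSMUSG00000024661.7; chromosome 19, 9980598 to 9985098 on GRCm38), had 30084 counts or 1758 CPM with dioscin and 13135 counts or 761 CPM with TAC. Per length it stood below Gpx3 alone with dioscin, at 507 CPM per kilobase, and topped the members with TAC, at 219 CPM per kilobase. Its ratio was 2.31 (2.26 to 2.36). The light chain Ftl1 had 294 CPM with dioscin and 155 CPM with TAC, a ratio of 1.90 (1.81 to 1.99), just short of the rule. This value is uncertain, since 90.6% of its 50-base stretches occur in other genes, most of them pseudogenes, and 34.6% of its exonic bases lie in exons of other genes. Nqo1, a quinone reductase and a widely used NRF2 target, had 20.9 CPM with dioscin and 12.4 CPM with TAC, a ratio of 1.69 (1.42 to 2.01), and was not called.

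A further 70 genes of the same chemistry were listed, covering NADPH supply, glutaredoxins, other transferases, NRF2 partners, methionine sulfoxide reductases and selenoproteins. Of these, 65 reached 1 CPM, and 14 were called higher and 2 lower, with a median log2 ratio of 0.50. The count of 14 became 7 when libraries were scaled without mitochondrially encoded genes. Over all genes, 10.5% were higher and 8.77% lower with TMM scaling. When libraries were scaled without mitochondrially encoded genes, these shares were 7.71% and 13.8%.

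Among the partners called higher were genes whose proteins bind members or pair with them, and a selenium carrier. Txnip, which binds and inhibits thioredoxin and also curbs glucose uptake, had 1023 CPM with dioscin and 224 CPM with TAC, a ratio of 4.57 (4.42 to 4.74). Selenop, the plasma selenium carrier, had 634 CPM with dioscin and 152 CPM with TAC, a ratio of 4.17 (3.99 to 4.35). Sqstm1, the autophagy receptor that can bind KEAP1 away from NRF2, had 459 CPM with dioscin and 160 CPM with TAC, a ratio of 2.87 (2.74 to 2.99). Slc3a2, which encodes the heavy chain that partners Slc7a11 and other amino acid transporters, had a ratio of 2.12 (1.91 to 2.36), while Slc7a11 itself was at 1 count in each library.

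NADPH, which both glutathione reductase and thioredoxin reductase consume, comes from several sources that differed here. Idh2, the mitochondrial isocitrate dehydrogenase, had 1575 CPM with dioscin and 724 CPM with TAC, a ratio of 2.17 (2.13 to 2.22). Me1, cytosolic malic enzyme, had 37.4 CPM with dioscin and 13.8 CPM with TAC, a ratio of 2.70 (2.32 to 3.15). G6pdx, the entry enzyme of the pentose phosphate pathway, had 10.1 CPM with dioscin and 8.05 CPM with TAC. Its ratio was 1.25 (0.999 to 1.58), and it was not called. Of the other genes listed for NADPH supply, Pgd had a ratio of 0.777 (0.689 to 0.875) and Tkt 0.606 (0.554 to 0.663). Taldo1 had 1.31 (1.19 to 1.45) and Idh1 1.23 (1.10 to 1.38), and none of these was called. Nnt, the mitochondrial transhydrogenase, which is truncated by a deletion in the C57BL/6J substrain, had 19 counts with dioscin and 15 with TAC. The annotation holds a further gene under the same symbol, which was at 0 counts in both libraries.

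Other transferase and detoxification genes were called higher too. Any reads of the mu class genes among them that also aligned to relatives were not counted. Gstm7 had a ratio of 3.25 (2.56 to 4.20), and Gstm6 had 56 counts with dioscin and 3 with TAC, a ratio of 16.3 with a wide interval (6.12 to 94.1). Aldh2, the mitochondrial aldehyde dehydrogenase, had 2.26 (2.15 to 2.38), and Ephx1, microsomal epoxide hydrolase, 2.20 (2.01 to 2.41). Msrb1, a selenium-containing methionine sulfoxide reductase, had 2.45 (2.09 to 2.87). The export pump for glutathione conjugates, Abcc1, was called lower, with 34.2 CPM with dioscin and 79.2 CPM with TAC, a ratio of 0.433 (0.392 to 0.477). The other gene called lower was Hpgds, a transferase that makes prostaglandin D, with 5.49 CPM with dioscin and 11.8 CPM with TAC, a ratio of 0.466 (0.360 to 0.596). Bach1, a repressor that competes with NRF2 for its sites, had 42.4 CPM with dioscin and 58.8 CPM with TAC, a ratio of 0.722 (0.655 to 0.795), and was not called. Among the other NRF2 partners, Cul3, the scaffold of the ligase to which KEAP1 brings NRF2, was called higher at 2.07 (1.91 to 2.26). Of the small MAF genes, Maff was called higher at 2.21 (1.84 to 2.68), while Mafk had a ratio of 1.69 (1.54 to 1.85) and Mafg 0.737 (0.687 to 0.790), neither called.

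Of the 41 members, 10 have over 10% of their exonic bases in exons of another gene or over 10% of their 50-base stretches in transcripts of another gene. They are Keap1, Gpx4, Prdx1, Prdx2, Prdx5, Gss, Gstm1, Gstm5, Gstp1 and Ftl1. Without them, 10 of the 30 remaining members at or above 1 CPM were called higher, against 10.5% of all genes. None was called lower, against 8.77% of all genes, and the median log2 ratio was 0.75.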

How the data were processed

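RNA from flash-frozen hearts was made into libraries with an Illumina TruSeq kit, per the labels' protocols. The files deposited by the authors hold raw read counts for each gene. HISAT2 2.1.0, HTSeq and the mm10 build are named in the submitters' processing notes. The sources used here give neither the annotation release nor the strand setting. The 5 lines of reads given to no gene, 71.5% of all lines counted with dioscin and 73.8% with TAC, were left out. Reads with several alignments, which were not counted to genes, made up 36.5% and 38.2%.

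Names, positions and exonic lengths (union of exons) came from GENCODE M21 on GRCm38, the build mm10 names. Of 55401 identifiers, 55141 matched without the version number. Promoters came from RefSeq on GRCm38.p6.

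Counts were scaled with TMM (edgeR 4.0.16, R 4.3.3). The interval was exact Clopper-Pearson (SciPy 1.17.1). The calling step was tested on simulated data with known changes, which held counting error but no variation among mice. Alternatives were DESeq2 1.42.0 size factors, total counts with and without mitochondrial genes, other filters, folds and pseudocounts, a lowess trend (statsmodels 0.14.6) over exonic length and GC content of the longest transcript, and protein-coding genes alone. Leaving out members with shared sequence was chosen after seeing the data. All members are accounted for. Partners named are Nnt, G6pdx, Bach1, Txnip and the 12 called genes whose intervals stayed farthest from 1. Cell markers followed fixed lists. The single macrophage markers, Hpgds, Cul3, the small MAF genes, Pgd, Tkt, Taldo1 and Idh1 were named after their values were seen. Members and lists were chosen with earlier results of these data known.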

Additional observations from a re-analysis of the deposited data

How the results depend on the processing

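No paired analysis was possible because each group had 1 library, and for the same reason no library could be left out. Of 11 alternatives, 8 gave a log2 ratio for each member. No called member changed direction under these 8, whereas the log2 ratios of Nfe2l2, Keap1, Gpx7, Txn1 and Gclc, none of them called, changed sign under at least 1. With 12 members called higher, a fold threshold of 1.5 gave 27 and one of 3 gave 6. For the partners, these thresholds gave 29 and 4 higher and 4 and 0 lower, and for all genes 3187 and 781 higher and 2815 and 554 lower. A filter of 5 CPM gave 1045 higher and 695 lower over all genes. Scaling without mitochondrially encoded genes shifted the median log2 ratio of all genes by -0.22. It gave a member median of 0.52, 9 members and 7 partners higher, and 1275 genes higher and 2286 lower, so that 35.8% of calls were higher in place of 54.6%. The member median exceeded that of all genes by 0.72 there and by 0.71 with TMM scaling. At 1 count in each library, Slc7a11 could not be compared.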

Other observations

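Selenoproteins contain the amino acid selenocysteine, and 10 of the members and partners that reached 1 CPM encode one. This grouping was chosen after the values were seen. Gpx3, Selenop and Msrb1 were called higher, with ratios of 8.32, 4.17 and 2.45. The other 7 were not called and had lower ratios. They were 1.67 for Gpx1, 1.42 for Txnrd1, 1.23 for Txnrd2, 1.21 for Gpx4, 1.05 for Selenow, 1.05 for Sephs2, an enzyme of selenium supply, and 0.871 for Txnrd3. Both secreted selenoproteins, Gpx3 and Selenop, had the highest ratios of the 10, and Gpx3, Selenop, Gpx4 and Selenow had the highest levels per length with dioscin, at 687, 223, 218 and 134 CPM per kilobase. With TAC these were 82.6, 53.5, 180 and 127 CPM per kilobase.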
